A study of Mus musculus with 4 samples.

Results

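The genes described are 4 transcription factors at the core of the pluripotency network of mouse embryonic stem cells, Pou5f1, Sox2, Nanog and Sall4, and 6 genes controlled by them, Fbxo15, Tdh, Dppa5a, Dppa3, Tcl1 and Gdf3. They were chosen by gene symbol, and all 10 were found, each on a single row, among the 32592 genes of the table. Poly(A) RNA was sequenced from CCE, an established mouse embryonic stem cell line (strain 129/Sv) kept feeder-free on gelatin in serum medium with leukemia inhibitory factor. The 2 libraries labelled knockdown came from cells infected with shRNAs (short hairpin RNAs) against Eif4a2, for which the protocol names sheIF4A2-2 and sheIF4A2-3. The 2 libraries labelled control came from cells infected with control shRNAs, shLuc or shEV. The shRNA given to each single sample is not stated. Both groups went through 3 days of selection in 1 µg/mL puromycin and were collected on day 4.5. Whether samples within a group were grown as separate cultures is not stated, so p-values reflect only the spread between the samples at hand, which may be technical.

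POU5F1 (also called OCT4) and SOX2 bind DNA side by side at a composite element, and together with NANOG and SALL4 they sustain one another's transcription and that of many genes specific to the undifferentiated state. The same factors restrain genes of the trophectoderm, primitive endoderm and later germ layers. Loss or excess of POU5F1 or SOX2 leads embryonic stem cells to differentiate, whereas NANOG varies from cell to cell within a culture.

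The values are normalized counts, which are reads scaled by the authors to an effective library size. Read totals recovered from these values ranged from 4604200 reads in control 2 to 13681765 in control 1. Control 1 and 2 stood farther apart (median absolute log2 difference 0.198 over 14890 genes tested) than knockdown 1 and 2 (0.0955). The targeted gene, Eif4a2, an RNA helicase of translation initiation, stood at 752.5 and 814 where the label says knockdown and at 530.6 and 379 where it says control. Its log2 change was thus positive (0.80, SE 0.15, limma adjusted p = 0.014), which goes against the label. Whether the labels of the groups were exchanged cannot be told from the files, and an exchange would turn every direction given below. Rose and fell refer below to libraries labelled knockdown as compared with those labelled control, not to a measured loss of Eif4a2. Of the embryonic stem cell markers outside the 10 genes, all 10 were tested, of which 1 rose and 2 fell, with summed levels of 5052 to 5132 under the knockdown label and 6605 to 6721 in the libraries labelled control.

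Of the 10 genes, Sox2 and Tdh fell, Fbxo15 rose and the other 7 did not pass a Benjamini-Hochberg adjusted p of 0.05 in limma. Over all 14890 genes tested, 23.0% passed, 10.5% rising and 12.4% falling. The 3 of 10 that passed are therefore near the background share. The median log2 change was -0.15 over the 10 genes and -0.011 over all genes tested, and 8 of the 10 had a negative change. The median absolute change was 0.29, against 0.27 over all genes. The 2 groups of libraries did not overlap for 7 of the 10 genes, 5 lower and 2 higher in the libraries labelled knockdown, against 66.8% of all genes tested (34.6% lower and 32.1% higher). In the authors' deposited table the same 3 genes passed at an adjusted p of 0.05 with the same sign, where 24.2% of the genes tested here passed. At an unadjusted p below 0.05 in limma, 4 of the 10 passed, against 38.8% of all genes. The share of all genes called varied with the test and the libraries used: it was 25.1% in edgeR, 15.4% in DESeq2 and 31.1% with the replicate number as a block. It was 51.9% without control 1, 45.7% without control 2, 7.68% without knockdown 1 and 4.39% without knockdown 2. With bulk RNA, a lower level in each cell and fewer cells with the transcript cannot be told apart. With 2 libraries a group, exact permutation gives no p under 0.333, and the calls depend on a spread estimated over all genes together.

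**Figure D1:**
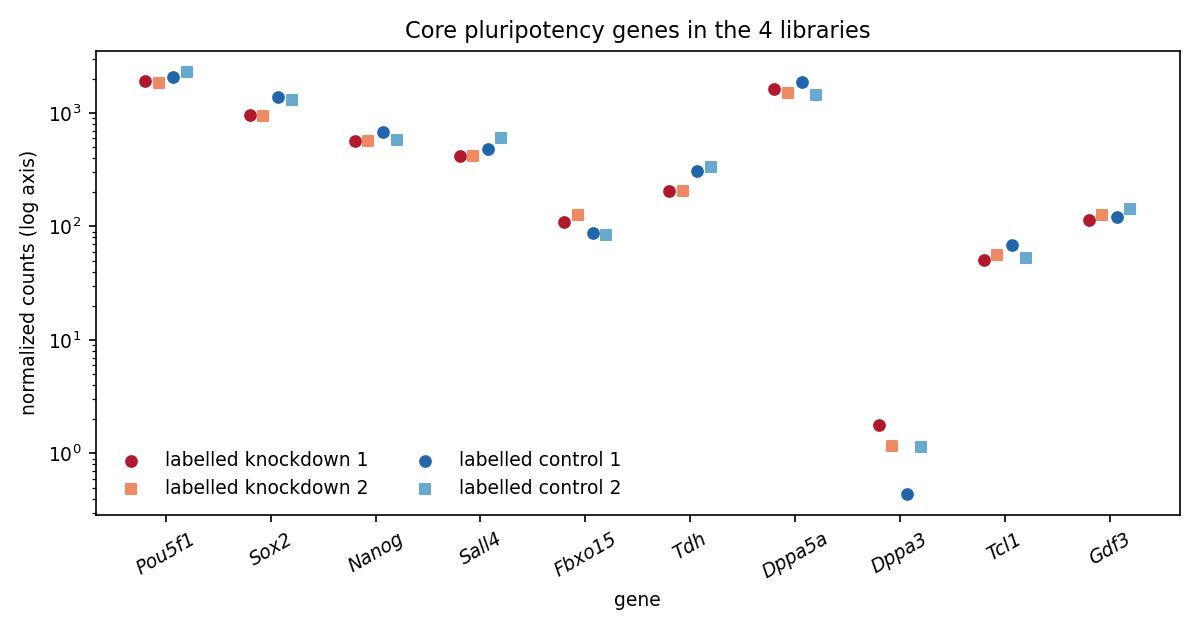
Normalized counts of the 10 genes in each of the 4 libraries, on a log axis (1 point per library, circles for replicate 1 and squares for replicate 2). Sox2 and Tdh lie lower, and Fbxo15 higher, in both libraries labelled knockdown than in both labelled control, and Dppa3 lies at 0.442 to 1.78, far below the other 9 genes.

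Levels between genes were compared per kilobase of the longest annotated transcript. By the mean over the 4 libraries, Dppa5a stood highest (2591 normalized counts per kb), followed by Pou5f1 (1497), Sox2 (556.8), Nanog (270.9), Tdh (140), Sall4 (94.9), Gdf3 (59.5), Tcl1 (40.8), Fbxo15 (40.4) and Dppa3 (1.36). Dppa5a was rank 5 and Pou5f1 rank 14 among the 14890 genes tested on this scale, Sox2 was rank 70 and Nanog rank 161, and 7 of the 10 genes lay in the highest 10%. Tcl1 and Fbxo15 had ranges that crossed, with 36.3 to 49 per kb for Tcl1 and 33.4 to 50.3 for Fbxo15, so their order is not resolved. Tdh (108.4 to 178.4 per kb) and Sall4 (82.8 to 119.6) also crossed over all libraries, although Tdh was higher in each single library. The other neighbours in this order had ranges that did not cross. Dppa3 was rank 12514.

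Sox2 encodes an HMG-box factor that partners POU5F1. On GRCm38 the gene spans bases 34650405 to 34652461 of chromosome 3 (plus strand), inside the noncoding gene Sox2ot on the same strand, which is not analysed here. Its level was 964 and 936.9 normalized counts under the knockdown label and 1386 and 1294 under the control label. Both libraries labelled knockdown were thus below both labelled control, by more than either group's spread (950.5 ± 19.2 against 1340 ± 65.1, SD, n = 2 each). Sox2 fell 1.41-fold (log2 change -0.49, SE 0.087, limma adjusted p = 0.0114). The call was lost when knockdown 1 (adjusted p = 0.0937) or knockdown 2 (adjusted p = 0.157) was left out.

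Pou5f1, the POU-domain factor that defines the network, lies on chromosome 17, 35506018 to 35510772 on the plus strand. It was at 1923 and 1841 under the knockdown label and at 2089 and 2305 under the control label. The groups did not overlap, and the difference did not pass the test (log2 change -0.22, 95% interval -0.46 to 0.012, limma adjusted p = 0.145). The upper bound of that interval is near 0, so the data do not show that the level was the same. Leaving out control 1 (log2 change -0.29, adjusted p = 2.76e-06) or control 2 (log2 change -0.15, adjusted p = 0.0293) brought Pou5f1 past the threshold, in fits whose spread came from the knockdown pair alone. An antisense gene, Gm19553, overlaps Pou5f1 and is not analysed here.

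Nanog, a homeodomain factor, lies on chromosome 6, 122707489 to 122714633 on the plus strand. It was at 571.2 and 565.5 against 677 and 582.5, so that control 2 lay close to the libraries labelled knockdown. The difference did not pass (log2 change -0.14, 95% interval -0.37 to 0.082, limma adjusted p = 0.31). Control 1 and 2 differed by 0.22 on the log2 scale, more than the groups did. Without control 2, Nanog passed (log2 change -0.25, adjusted p = 0.000119), and without control 1 the change was -0.035.

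Sall4, a zinc finger factor that binds AT-rich DNA and regulates Pou5f1, lies on chromosome 2, 168748332 to 168767943 on the minus strand. It was at 422.1 and 419.9 against 477.9 and 606.7. Both controls were higher, and they differed from each other by 0.34 on the log2 scale, about as much as the groups (log2 change -0.35, SE 0.12, 95% interval -0.63 to -0.076, limma adjusted p = 0.0698). This was the 1 gene among the 7 that did not pass whose unadjusted p was below 0.05 (0.0196). It passed without control 1 (log2 change -0.53, adjusted p = 3.28e-17), without control 2 (log2 change -0.18, adjusted p = 0.00768) and after a trend on GC content was removed (adjusted p = 0.045). Sall4 overlaps Gm14261 on the opposite strand, a noncoding gene at 4.79 to 7.58 normalized counts, and no source says that counting used strand.

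The ratio of each factor to Pou5f1 within a library does not depend on the scaling between libraries. Sox2 reads amounted to 50.1% and 50.9% of Pou5f1 normalized counts under the knockdown label and to 66.4% and 56.1% under the control label. Sox2 was therefore lower relative to Pou5f1 in both libraries labelled knockdown. Nanog stood at 29.7% and 30.7% of Pou5f1, against 32.4% and 25.3%, and Sall4 at 21.9% and 22.8% against 22.9% and 26.3%. The groups overlapped for Nanog on this measure. For Sall4 they were barely apart, as knockdown 2 (22.8%) and control 1 (22.9%) were nearly equal. How many of all genes overlap on this measure was not computed.

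Promoter sequences were at hand for 4 of the 10 genes (Pou5f1, Sox2, Nanog and Tcl1), as RefSeq windows on GRCm38.p6 of 250 bases before to 50 bases after an annotated start. The 3 core factors are shown because they are the genes that bind one another's control regions, and 1 of them fell while the other 2 did not pass. Capitals mark TTTGCAT, the greater part of the octamer bound by POU factors, ACAATG, a SOX core, AGGTCA, a nuclear receptor half-site, and GGGGCGGGG, a GC box, each on either strand, 5′ to 3′ in the direction of the gene. The windows are chr3:34649745-34650044 for Sox2, chr6:122707239-122707538 for Nanog and chr17:35505782-35506081 for Pou5f1, all on the plus strand.
Sox2: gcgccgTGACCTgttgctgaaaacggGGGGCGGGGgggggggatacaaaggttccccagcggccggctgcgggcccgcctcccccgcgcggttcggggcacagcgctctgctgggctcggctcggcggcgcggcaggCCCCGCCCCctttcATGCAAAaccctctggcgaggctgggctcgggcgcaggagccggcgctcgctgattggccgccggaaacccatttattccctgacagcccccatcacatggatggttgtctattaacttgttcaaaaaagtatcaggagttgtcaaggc
Nanog: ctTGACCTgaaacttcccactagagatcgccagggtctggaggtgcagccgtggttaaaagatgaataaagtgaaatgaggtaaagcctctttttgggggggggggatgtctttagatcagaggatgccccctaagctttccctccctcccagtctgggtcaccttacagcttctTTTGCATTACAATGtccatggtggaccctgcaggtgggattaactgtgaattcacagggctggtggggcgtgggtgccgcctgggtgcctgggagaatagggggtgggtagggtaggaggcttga
Pou5f1: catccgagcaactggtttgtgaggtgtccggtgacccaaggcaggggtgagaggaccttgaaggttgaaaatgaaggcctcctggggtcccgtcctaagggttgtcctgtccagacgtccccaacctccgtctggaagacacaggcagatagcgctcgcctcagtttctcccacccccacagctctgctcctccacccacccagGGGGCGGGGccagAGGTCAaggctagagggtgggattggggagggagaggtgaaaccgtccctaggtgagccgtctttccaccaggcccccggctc

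In the Nanog window the octamer part and the SOX core stood side by side from base 176 to base 189, beginning 75 bases before the start, with any 1 base between them (TTTGCAT, 1 base, ACAATG). Among 32851 promoter windows of the same length this composite, searched on both strands, occurred in 2, and both belong to Nanog, whose 2 annotated starts share it. The Sox2 window held the octamer part on the reverse strand (ATGCAAA), 99 bases before the start, with no SOX core. This RefSeq start lies 410 bases upstream of the GENCODE start of Sox2, so the window ends before the gene span given above. The octamer part alone occurred in 4.63% of all windows and the SOX core in 12.6%, and the composite contains both. The Pou5f1 window shown held a GC box and an AGGTCA half-site within 46 bases of the start and neither POU nor SOX letters. The window of a second annotated start, 2789 bases downstream of the GENCODE start and inside the gene, held a SOX core. AGGTCA occurred in 16.3% of all windows and GGGGCGGGG in 11.4%, and TATAAA, also searched, in 13.6% and in none of the 4 genes' windows. Sox2 and Nanog also had AGGTCA on the reverse strand near the far end of the window. These matches are descriptions of letters and say nothing of binding.

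Of the 6 targets, Tdh and Fbxo15 passed the test. Tdh encodes threonine dehydrogenase, the mitochondrial enzyme that breaks threonine down toward glycine and acetyl-CoA and on which mouse embryonic stem cells depend. The gene lies on chromosome 14, 63492347 to 63509092 on the minus strand. Tdh stood at 206.3 and 203.9 normalized counts under the knockdown label and at 307.6 and 335.6 under the control label (205.1 ± 1.7 against 321.6 ± 19.8, SD, n = 2 each). The libraries labelled knockdown were nearly equal and both well below the controls. Tdh fell 1.56-fold (log2 change -0.64, SE 0.081, limma adjusted p = 0.00508), and it passed under each of 16 alternative settings, with changes of -0.71 to -0.52.

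Tdh has a near-identical processed copy, Gm13929 on chromosome 2, whose annotated transcript matches that of Tdh at 97.1% over 1125 bases. Its row was higher than that of Tdh itself, at 261 and 260.9 against 406.7 and 414.8 (log2 change -0.65, SE 0.075, limma adjusted p = 0.00394). Tdh held between 43.1% and 44.7% of the sum of both rows in all 4 libraries. The split of reads between the copies was thus much alike across libraries, and the level of either row alone is uncertain. Added together, the pair stood at 466.1 ± 1.82 against 732.3 ± 25.5 and fell by 0.65 on the log2 scale (SE 0.078, limma adjusted p = 0.00445). An antisense gene, Gm17232, overlaps Tdh and was at 16.6 to 24.4 normalized counts.

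**Figure D2:**
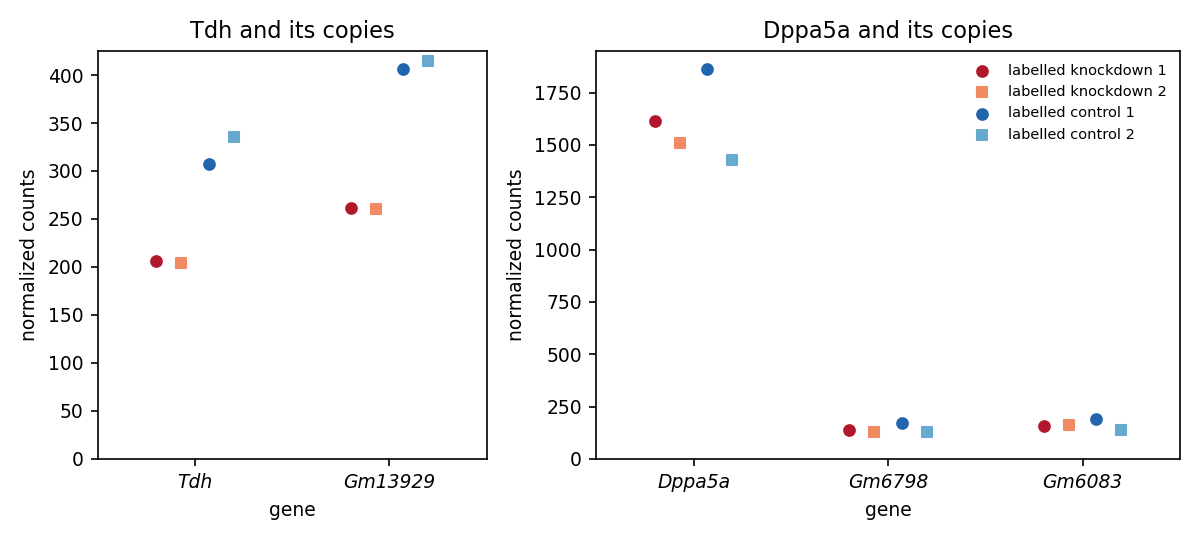
Normalized counts of Tdh and Dppa5a beside annotated near-identical copies, in the 4 libraries (linear axes from 0, 1 point per library). Gm13929 lies above Tdh in every library and shows the same drop, and Dppa5a and its copies Gm6798 and Gm6083 share the order of the 4 libraries at their extremes, with control 1 highest and control 2 lowest.

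Around Tdh, a list of 13 genes of threonine and glycine breakdown, the folate cycle and amino acid import was read, all of which were tested. Of these, 7 fell, 1 rose and 5 did not pass (median log2 change -0.34). Over all genes tested, 12.4% fell and 10.5% rose (median -0.011). Mthfd2, a mitochondrial folate enzyme, fell from 121.2 ± 22.8 to 47.2 ± 7.07, Shmt2, which interconverts serine and glycine, from 328.5 ± 31.4 to 215.1 ± 21, and Mthfd1l from 143.9 ± 5.19 to 100 ± 7.91. Mthfd2l, a related folate enzyme, rose from 2.57 ± 0.113 to 5.96 ± 0.269. Gcat, which takes over the product of TDH, did not pass (log2 change -0.23). Of the glycine cleavage system, Gldc (-0.14), Amt (0.10) and Gcsh (-0.085) did not pass. Dld of the same system fell from 87.8 ± 7.06 to 61.1 ± 4.84 (log2 change -0.52, limma adjusted p = 0.017). Gcat and the genes of this system were named after their values were seen. The calls of the list varied with the library left out, as did those over all genes. Its median was -0.42 without control 1, -0.25 without control 2, -0.37 without knockdown 1 and -0.30 without knockdown 2.

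Fbxo15 encodes an F-box protein, the part of an SCF ubiquitin ligase that picks its substrates, and its locus serves as a reporter of the pluripotent state. It lies on chromosome 18, 84934782 to 84981473 on the plus strand. Fbxo15 stood at 108.8 and 127.4 normalized counts under the knockdown label and at 87.9 and 84.6 under the control label (118.1 ± 13.1 against 86.3 ± 2.35, SD, n = 2 each). Both libraries labelled knockdown were higher, and they differed more from each other than the controls did, which among the 10 genes held for Fbxo15 alone. Fbxo15 rose 1.36-fold (log2 change 0.44, SE 0.10, limma adjusted p = 0.0241). The call was lost without knockdown 1 (adjusted p = 0.0519), without knockdown 2 (adjusted p = 0.316) and without a variance trend (adjusted p = 0.0794), where 7.17% of all genes rose. Relative to Pou5f1 in the same library, Fbxo15 stood at 5.66% and 6.92% against 4.21% and 3.67%. Timm21 overlaps it on the opposite strand and was at 17.7 to 23.5 (log2 change -0.14, limma adjusted p = 0.576). Of the SCF core genes, Skp1a was at 190.8 ± 0.103 against 190.9 ± 19.8 and Cul1 at 105.3 ± 1.42 against 121.1 ± 12.2, and neither passed (limma adjusted p = 0.987 and 0.177).

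Dppa5a encodes a KH-domain protein that binds RNA and is abundant in undifferentiated cells. It lies on chromosome 9, 78367052 to 78368177 on the minus strand. It was at 1615 and 1508 under the knockdown label and at 1863 and 1428 under the control label, so the 2 controls enclosed both other libraries. The difference did not pass (log2 change -0.064, 95% interval -0.38 to 0.26, limma adjusted p = 0.764), and its sign turned with library size as the only scaling (0.060), with upper-quartile scaling (0.0054) and without control 1 (0.13). Without control 2 it passed (log2 change -0.26, adjusted p = 9.61e-05). Dppa5a has several near-identical copies. Of these Gm6798 (95.8% identity over 360 bases) was at 126.7 to 173 normalized counts and Gm6083 (96.9% over 357 bases) at 139.8 to 189.3, and Dppa5a held 83.7% to 84.6% of the sum of the 3 rows. The sum had a log2 change of -0.067 (SE 0.14, limma adjusted p = 0.756).

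Gdf3, Dppa3 and Nanog lie within 109.2 kb of one another on chromosome 6, in this order. Gdf3 encodes a ligand of the TGF-beta superfamily and spans 122605403 to 122610087 on the minus strand. It was at 114.4 and 127.2 normalized counts against 122.2 and 142.1, and the groups overlapped (log2 change -0.13, 95% interval -0.37 to 0.12, limma adjusted p = 0.413). Without control 1 it passed (log2 change -0.23, adjusted p = 0.00345), and without control 2 the change was -0.019.

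Dppa3, also known as Stella, encodes a maternal factor that limits DNA methylation by UHRF1 and DNMT1, and spans 122626410 to 122630272 on the plus strand. It received 20 and 15 reads under the knockdown label and 6 and 5 under the control label, or 1.78 and 1.17 against 0.442 and 1.13 normalized counts. Knockdown 2 and control 2 were nearly equal. The ratio of summed reads per effective library size was 2.38 (95% exact interval 1.18 to 5.19, counting error only), and the difference did not pass limma (log2 change 0.48 on the scale with a pseudocount of 1, 95% interval -0.18 to 1.15, adjusted p = 0.25). Because the level is low, the fitted change moved with the pseudocount, to 0.65 with 0.5 and 0.24 with 3, and was 1.21 in edgeR on the reads (adjusted p = 0.137). The authors' deposited table gives 1.21 with an adjusted p of 0.121. Without control 2 it passed (log2 change 0.77, adjusted p = 0.0128), and without control 1 the change was 0.20. Dppa3 passed the filter on low values in 3 of the 4 libraries. Its processed copy Dppa3-ps on chromosome X, at 98.2% identity over 451 bases, was at 0 to 0.81 normalized counts, so reads of the pair may not be separable.

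Tested were 5 neighbours of this cluster, taken from a list and not themselves among the 10 genes. Foxj2 (22.7 ± 1.88 against 13.9 ± 0.0754) and Apobec1 (33.7 ± 0.401 against 20.7 ± 4.59) rose. Slc2a3 and Necap1 were among those that did not pass. Over all genes tested, 10.5% rose. Slc2a3, the glucose transporter gene next to Nanog, was at 3093 and 3140 against 2794 and 2255 (log2 change 0.31, limma adjusted p = 0.115). Of the list as a whole, including the 3 genes of the cluster, 2 rose, against 0 without knockdown 1, 0 without knockdown 2 and 5 without control 2.

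Tcl1 encodes a small protein that binds AKT kinases and promotes their activity. It lies on chromosome 12, 105216750 to 105222793 on the minus strand, and was at 50.8 and 56.5 normalized counts against 68.4 and 52.5. The groups overlapped (log2 change -0.16, 95% interval -0.49 to 0.17, limma adjusted p = 0.444), and the sign turned without control 1 (0.029). Without control 2, Tcl1 passed (log2 change -0.35, adjusted p = 0.000522). The related genes Tcl1b1 to Tcl1b5 had no reads in any library. Among the kinases that TCL1 binds, Akt1 rose from 47.2 ± 5.29 to 76.2 ± 3.01 and Akt2 from 51.3 ± 1.95 to 72.9 ± 3.92. Without knockdown 1, and likewise without knockdown 2, 1 of the genes on this list rose.

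**Figure D3:**
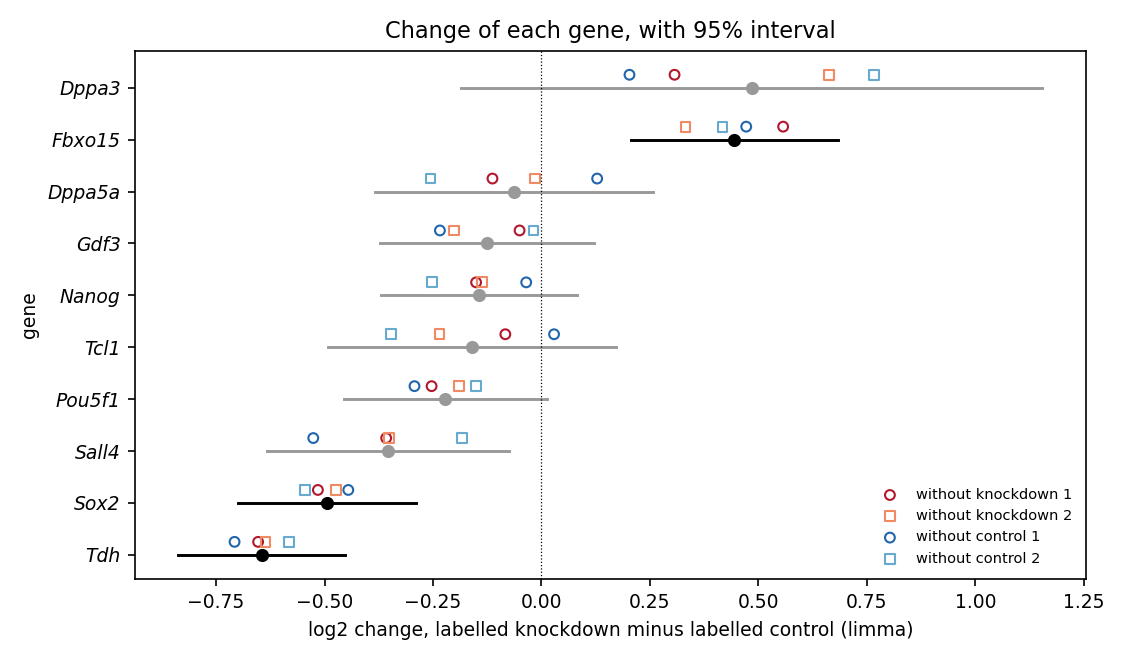
Log2 change of each of the 10 genes between the libraries labelled knockdown and control (filled points, with the 95% limma interval as a bar; black for the 3 genes that passed, grey for the others). Open symbols give the change without each library; for Tcl1 and Dppa5a they fall on both sides of 0, and for the other 8 genes on 1 side.

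The other genes of the network were read from lists that do not include the 10. Of 25 core network partners, all of them tested, 10 fell, 0 rose and 15 did not pass in limma (median log2 change -0.21, against -0.011 over all genes tested). Over all genes tested, 12.4% fell and 10.5% rose. At an unadjusted p below 0.05, 13 fell and 0 rose, and edgeR's quasi-likelihood test gave 10 and 0. Klf4, a Krüppel-like factor of naive cells, fell from 793.9 ± 14.2 to 437 ± 5.75, Nr0b1, an orphan nuclear receptor, from 391.6 ± 84 to 161.1 ± 1.67, Tbx3 from 698.4 ± 7.78 to 438.2 ± 3.86 and the 5-methylcytosine oxidase gene Tet1 from 773 ± 11.8 to 463.3 ± 15.6. Scaling by library size alone gave 8 that fell and 1 that rose, where 6.69% of all genes fell and 14.5% rose. The calls varied with the library left out, as did those over all genes. The median of the list was -0.34 without control 1 and -0.19 without control 2. It was -0.23 without knockdown 1 and -0.26 without knockdown 2.

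Of 24 other targets of the core factors, 6 fell, 4 rose and 14 did not pass (median log2 change -0.12). The shares over all genes tested were 12.4% and 10.5%. Zfp42, a zinc finger gene used as a marker of the naive state, fell from 1012 ± 61.8 to 483.8 ± 4.05, the osteopontin gene Spp1 from 451.3 ± 8.89 to 298.6 ± 1.44 and L1td1, an RNA-binding protein gene, from 1358 ± 256 to 777.3 ± 23.2. Otx2, a factor of the transition to the formative state, rose from 53.4 ± 0.284 to 106.2 ± 1.92. Scaling by library size alone gave 3 that fell, 5 that rose and a median of 0.0053. The calls of this list also varied with the library left out. Its median was -0.16 without control 1 and -0.082 without control 2, and -0.12 without knockdown 1 and -0.14 without knockdown 2. Tdh and Sox2 had changes smaller than Zfp42 and Klf4, which were named because they had the smallest p of their lists. The median of the 10 genes (-0.15) lay between the list medians of -0.21 and -0.12. Tdh (-0.64) and Sox2 (-0.49) were the genes among the 10 that fell, so they are not set against those medians. Whether the 10 genes differ from these lists was not tested.

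**Figure D4:**
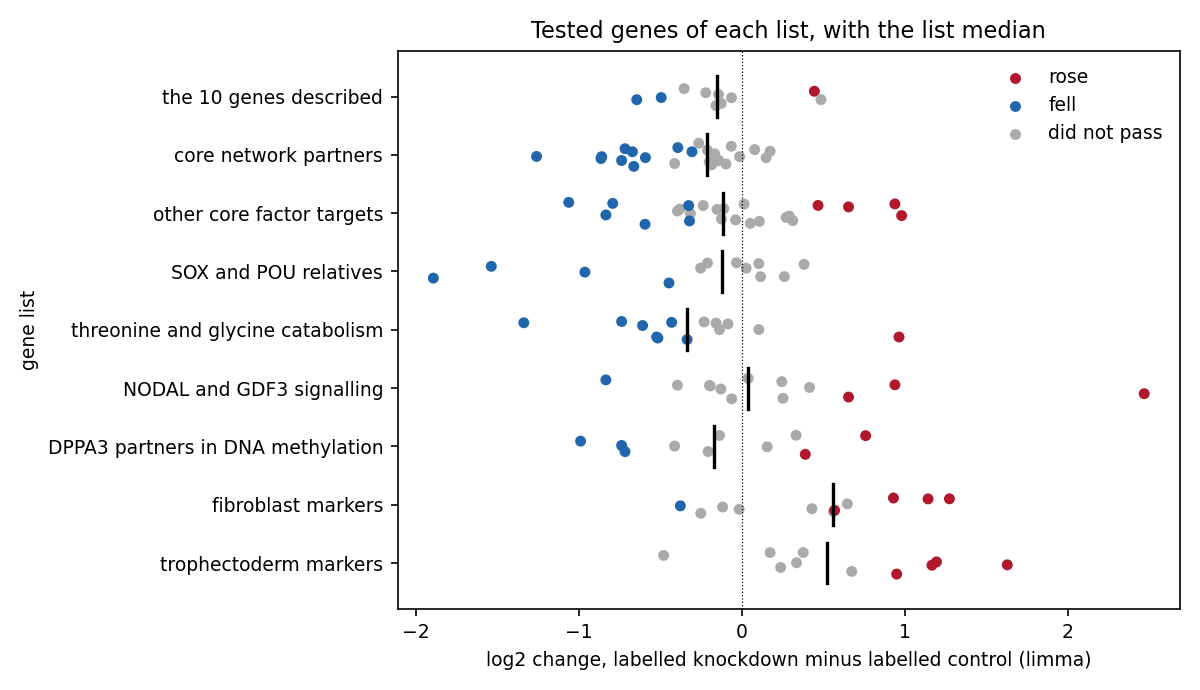
Log2 change of each tested gene in 9 lists (points, coloured by whether the gene rose, fell or did not pass in limma), with the list median as a black bar. The medians are -0.15 for the 10 genes described, -0.21 for core network partners, -0.12 for other targets, 0.56 for fibroblast markers and 0.52 for trophectoderm markers; some genes stand in more than 1 list. The fibroblast and trophectoderm medians stay positive without each library.

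Relatives of the core factors and of the Dppa genes were read as well. Of 12 tested SOX and POU relatives, 4 fell and 0 rose in limma, in edgeR and at an unadjusted p below 0.05 (median log2 change -0.12). In limma, 12.4% of all genes tested fell and 10.5% rose. Without control 2, 5 fell and 2 rose and the median was 0.029, and 3 fell in DESeq2 and with scaling by library size alone. Those that fell in limma were Sox21 (25.3 ± 3.65 to 8.02 ± 0.665), Sox11 (17.5 ± 3.73 to 8.4 ± 0.544), Sox13 (53.4 ± 0.664 to 38.9 ± 0.494) and Pou2f3 (12.8 ± 8.52 to 2.41 ± 0.868). The 4 numbered 3 without knockdown 1 and 2 without knockdown 2. Among relatives of Sall4 and the Dppa genes, Sall3 (62.8 ± 20.3 to 26.6 ± 0.877), Sall1 (524.4 ± 33.2 to 398.7 ± 1.86) and Ooep, a KH-domain relative of Dppa5a (140.3 ± 9.89 to 105.4 ± 2.38), fell, and Khdc3 rose (27.6 ± 8.32 to 44 ± 0.792), of 7 tested. Without knockdown 1, and likewise without knockdown 2, 1 of them fell and 0 rose, and 2 rose without control 2.

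GDF3 signals with NODAL through activin receptors and the co-receptor encoded by Tdgf1. Beside the counts that follow, 10.5% of all genes tested rose and 12.4% fell. Of 13 tested genes of this pathway, 3 rose, 1 fell and 9 did not pass (median log2 change 0.038, and -0.073 without control 2). The ligand gene Nodal rose from 88.9 ± 14.7 to 139.9 ± 14.2 and its antagonist Lefty1 from 44.6 ± 14.5 to 84.9 ± 15.6, while the second antagonist, Lefty2, fell from 62.7 ± 21.7 to 33.7 ± 0.637. Scaling by library size alone took Lefty2 out of those that fell. The members that rose numbered 6 without control 1 and 1 without knockdown 2, and the members that fell 3 without control 1 and 4 without control 2. Gdf3 itself did not pass. Around DPPA3, of 10 genes of DNA methylation, Tet1, Tet2 (467.1 ± 52.8 to 283 ± 10.6) and Dnmt3l (211.5 ± 54.2 to 104.4 ± 4.97) fell, Dnmt3b (125.9 ± 30 to 210.8 ± 3.88) and Tet3, named after its values were seen, rose, and 5, among them Uhrf1 (log2 change -0.21) and Dnmt1 (0.16), also named after their values were seen, did not pass. Without control 1, 6 fell, without control 2, 4 rose, and without either knockdown library 1 rose.

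Markers of other cell types moved between the same libraries, in which 10.5% of all genes tested rose and 12.4% fell. Of 11 tested fibroblast markers, 4 rose, 1 fell and 6 did not pass (median log2 change 0.56), and 4 had a negative change. Among those that rose, Cald1 was at 256.3 ± 17.6 against 117.1 ± 27.4 and Col1a1 at 8.86 ± 0.47 against 3.14 ± 1. The summed level of the list went the other way, with 1320 and 1342 under the knockdown label and 1495 and 1356 under the control label. Dcn, Lum and S100a4 had no reads. Of 10 tested trophectoderm markers, 4 rose and 0 fell in limma, with 0 falling at an unadjusted p below 0.05 and in edgeR (median 0.52). They summed to 159.1 and 176.3 against 126 and 89.2. Primitive endoderm markers summed to 482 and 483.9 against 440.2 and 440.8, primitive streak and mesoderm markers to 28.7 and 29.1 against 20.4 and 19.9, and neural markers to 78.5 and 84 against 94.3 and 122.2. Germ cell markers summed to 349.8 and 354 against 324.8 and 250.7, with 3 of 10 risen, Stra8 (8.18 ± 1.65 to 22.2 ± 3.4) among them, against 7 without control 1 and 1 without either knockdown library. Without control 2, 7 fibroblast and 7 trophectoderm markers rose, without knockdown 1 it was 2 and 2, and without knockdown 2 it was 1 and 0. The part of other cell types in the changes of the 10 genes was not tested.

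Across all genes the change varied with the GC content of the longest transcript. In the quintile of genes lowest in GC, 127 rose and 576 fell (median log2 change -0.14), and in the highest quintile 566 rose and 184 fell (median 0.17). Fbxo15, at 43.4% GC, rose from within the lowest quintile, and Pou5f1, at 57.6%, was lower within the highest. The 10 genes had a median of 50% GC, near the 50.3% of all genes tested. After a smooth trend on GC was removed from each library, Fbxo15 had a log2 change of 0.56, Pou5f1 -0.38 (limma adjusted p = 0.0502), Tdh -0.70, Sox2 -0.48 and Nanog -0.059. For Pou5f1 and Fbxo15 the change was thus larger without the trend, and for Nanog smaller.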

How the data were processed

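Poly(A) RNA of 4 samples was sequenced as single-end reads of 100 bp. The submitters' processing notes name edgeR 3.26.8, HTSeq 0.11.2, SAMtools 1.9, Bowtie2 2.3.4.3 and build mm9, without saying what each did. Annotation, aligner settings and strandedness of counting: not given in the sources used here. As normalized signal, the authors' deposited table gives 1 value per gene and sample (reads scaled to an effective library size). Whole reads were recovered for 100% of values within a tolerance of 0.001. Per the file headers it also holds the authors' p-value and adjusted p-value, a test score (likelihood ratio), and a log2 fold change and log2 CPM.

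The members and gene lists were chosen with earlier results of these data known. limma 3.58.1 (R 4.3.3) with a variance trend was fitted to log2(value + 1), a scale that understates changes of low genes, over 14890 genes kept by edgeR 4.0.16's filterByExpr. Tests were two-sided with Benjamini-Hochberg adjustment over all genes, threshold 0.05. The edgeR quasi-likelihood test on recovered reads called 3742 genes and DESeq2 1.42.0 called 2204. On simulated data in which 200 genes were changed 2-fold, the fit recovered 86.5% of them, and 7.49% of its calls were false. The changes called among the 10 genes were smaller (1.36- to 1.56-fold), so the simulation does not measure error for them. Named are all 10 genes, Eif4a2, and per list up to 4 members that passed with the smallest p, or the 2 highest in level where none passed. No samples were treated as duplicates. Coordinates, lengths and GC are from GENCODE M21 (GRCm38), matched by ID for 32590 of 32592 genes and not converted. Copies were found with BLAST 2.17.0 (at least 90% identity over 200 bases). Intervals on read ratios cover counting error only, as PCR reads are not independent molecules. Some genes of the lists are not reported here by name.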

Additional observations from a re-analysis of the deposited data

How the results depend on the processing

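For all 10 genes, 16 alternative settings were run, and for Tdh and Dppa5a also the sum with near-identical copies, chosen after seeing the data. Tdh kept its call in each. In limma without a variance trend, Sox2 passed only just (adjusted p = 0.0498). Sox2 kept its call in all but the fits without knockdown 1 or 2, and Fbxo15 in all but these and the fit without a variance trend, in which 0 of the 10 genes rose (1 at an unadjusted p below 0.05; 1 rose in edgeR and in DESeq2). With 1 library left out, the genes that fell numbered 1 to 7, those that rose 0 to 2, and the median log2 change of the 10 genes was -0.22 to -0.13. Such a fit assumes that the lone library varies like the other group. The calls over all genes also varied with the library left out, so the range of these counts is not shown to be particular to the 10 genes. The median was -0.029 with library size only and -0.083 with upper-quartile scaling. Library size alone moved the median of all genes by 0.11, and the median of the 10 genes minus that of all genes was then -0.13, against -0.14 as deposited. The sign of Dppa5a turned with library size only (0.060), with upper-quartile scaling (0.0054) and without control 1, its changes without 1 library ranging from -0.26 to 0.13. That of Tcl1 turned without control 1, with a range of -0.35 to 0.029.

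Whether same-numbered samples of the 2 groups shared a culture or batch is not stated. The differences between replicates 1 and 2 of each group were nearly uncorrelated over genes (0.0356), which does not settle this. With the replicate number as a block, 4632 genes passed in place of 3418. Sall4 then passed (adjusted p = 0.0135), so that 3 of the 10 genes fell and 1 rose. DESeq2 called 2204 genes, limma without a variance trend 1932, and the fits without 1 library 653 to 7724. Control 2 was the shallowest library, with 4604200 reads, and Dppa3 had 5 reads there.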
